A study of Mus musculus with 12 samples.

Results

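The genes described here encode 37 proteins that make ribosomes or transcribe ribosomal RNA, and they were taken by gene symbol from an RNA-seq table of cultured mouse cells. All 37 symbols were found among the 34513 genes of the table, and all 37 passed the filter on low counts that 18338 genes passed. They fall into 6 roles: 6 genes of RNA polymerase I (Pol I) and its factors, 3 core proteins of the box C/D small nucleolar ribonucleoproteins (snoRNPs), 4 core proteins of the box H/ACA snoRNPs, 11 factors of the small subunit processome and pre-40S particle, 8 factors of the pre-60S particle, and 5 nucleolar proteins with several functions. The cells were Melan-A, a non-tumorigenic mouse melanocyte line, B16F0, a tumorigenic mouse melanoma line, and B16F10, its metastatic relative. Each line was grown untreated (control) or with SX-682, an inhibitor of the chemokine receptors CXCR1 and CXCR2, which makes 6 groups of 2 libraries. The dose and exposure time of the sequenced cultures are not given in the sources used here. The labels do not say whether the libraries of a group came from separate cultures, so the p-values measure the spread between these libraries, which may be technical.

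Ribosome synthesis begins in the nucleolus, where Pol I copies the rRNA genes into a long precursor. Box C/D snoRNPs methylate and box H/ACA snoRNPs pseudouridylate that precursor, guided by small nucleolar RNAs, while the small subunit processome and the pre-60S factors fold, cut and export the growing subunits. The pathway takes a large share of a dividing cell's resources, and in melanocytes and melanoma it is widely known to follow growth signals such as mTOR and MYC. The libraries measured the RNA of these protein-coding genes, and messenger RNAs were not separated from other transcripts of the same gene. The libraries did not measure rRNA synthesis.

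Library totals ran from 48876982 to 85322092 counts, so the 3-count floor was 0.0330 to 0.0623 CPM (counts scaled to a common library size). The lowest count of any member in any library was 1180, far above the floor. Together the members took 0.538% to 0.667% of each library's counts, lowest in the B16F10 SX-682 libraries (0.538% and 0.539%, against 0.621% and 0.630% in the B16F10 controls). Of 9 melanocyte markers, none was at or under the floor in both libraries of any group, but their summed level was 1351 to 1381 CPM in untreated Melan-A, against 19323 to 19421 CPM in untreated B16F0 and 25137 to 25166 CPM in untreated B16F10. Within that sum Sox10 was higher in untreated Melan-A (655 and 685 CPM) than in either untreated B16 line. The other markers were lower there, with Tyr at 0.89 and 0.76 CPM. With SX-682 that sum was 1353 to 1361 CPM in Melan-A, 16247 to 16452 CPM in B16F0 and 15258 to 15509 CPM in B16F10, so it was lower than in the controls of both B16 lines, and its part in the member values was not tested. The summed fibroblast, keratinocyte, leukocyte and endothelial markers were at most 60.8, 8.35, 47.8 and 2.24 CPM. The leukocyte sum of Melan-A was 18.2 CPM in both controls and 46.2 to 47.8 CPM with SX-682, while the pan-leukocyte marker Ptprc was at most 0.25 CPM in every library. These are whole-culture RNAs scaled to each library's total, so fewer cells of a type and less RNA per cell cannot be told apart.

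In untreated cells the members spanned a wide range of levels. Levels between genes are compared per kilobase of the merged exons given in the table (CPM per kb). Npm1, a histone and pre-ribosome chaperone, was the highest in each line, at 411, 413 and 425 CPM per kb in Melan-A, B16F0 and B16F10. Ncl, the rRNA-binding protein nucleolin, read 136, 151 and 165 CPM per kb. Nhp2, an H/ACA core protein, read 109.6, 181 and 166 CPM per kb, and these 3 genes filled the top ranks in every line. At the low end, Taf1d read 2.14, 4.35 and 2.17 CPM per kb and Wdr12 3.48, 5.05 and 3.71 CPM per kb. The merged exons include retained introns, which lowers the per-length level of some genes: Nop58 has 10758 merged bases against 1713 in its principal transcript, and per kb of the principal transcript it read 117, 109 and 114 CPM in Melan-A, B16F0 and B16F10, among the highest 5 of the 35 members that have such a transcript. Taf1d, with 8949 merged bases, has none, so its place at the low end rests on the merged length. Npm1 has many processed pseudogenes, so its counts may be split or shared with near-identical copies.

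**Figure D1:**
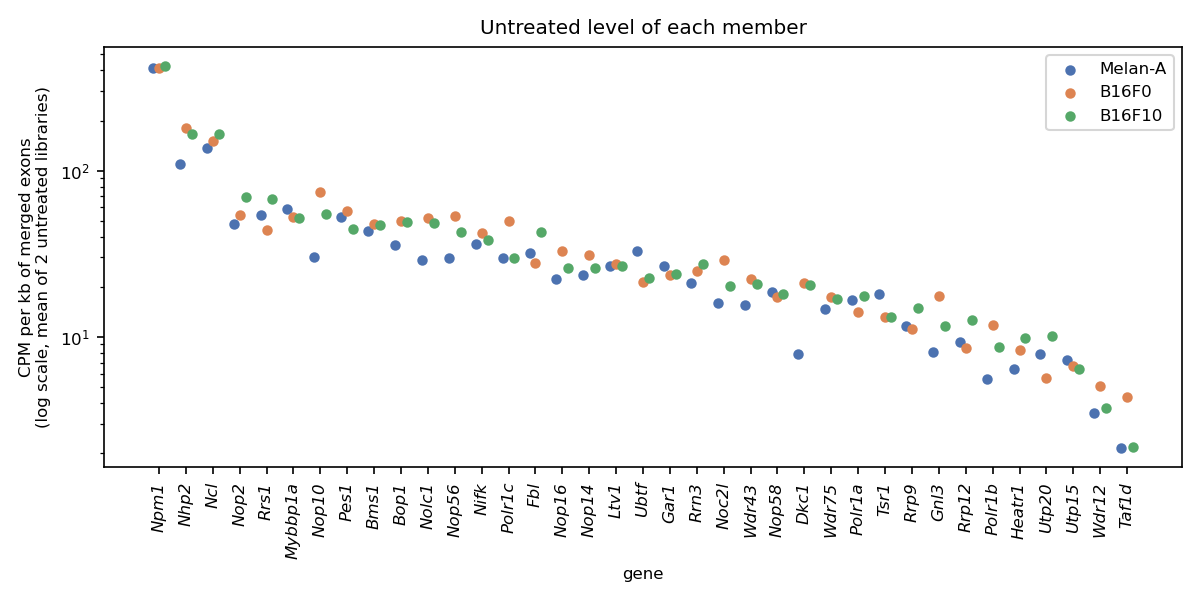
Untreated level of each of the 37 members, in CPM per kb of merged exons on a log axis, as the mean of 2 control libraries per line. Npm1, Nhp2 and Ncl stand above the others, Dkc1 and Nop10 show the widest gaps between Melan-A and the B16 lines, and Taf1d and Wdr12 are lowest.

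Most members were higher in the untreated B16 lines than in untreated Melan-A. Against Melan-A, 23 members were higher in B16F0, where 35.3% of all genes tested were higher, and 11 were lower (40.6% of all genes). In B16F10, 27 members were higher than in Melan-A (33.4% of all genes) and 6 were lower (40.8% of all genes). The median member difference was 0.23 (log2) for B16F0 and 0.28 for B16F10, beside -0.060 and -0.10 over all genes tested. Between the B16 lines the members split: 12 were higher in B16F10 than in B16F0 (30.8% of all genes) and 15 lower (31.2% of all genes), with a median of -0.031. The B16F10 counts depended on the scaling. With library sizes that leave out the 50 highest genes, 19 members were higher and 11 lower in B16F10 than in Melan-A. Under the same scaling 8 were higher and 23 lower than in B16F0. The median of all genes in B16F10 moved from -0.10 to -0.24 against Melan-A and from -0.0017 to -0.089 against B16F0. Shares of all genes called under that scaling are not given here, so these counts have no background to be read against. A change of library size moves every gene alike, so by construction the members' median lay 0.38 above that of all genes under both scalings. Among genes with at least 10 counts in every library that gap was 0.23 in B16F10 against Melan-A, not 0.38. For B16F0 against Melan-A it was 0.19 there, and 0.29 with the main filter. Past an absolute fold of 1.5, 10 members were higher (21.3% of all genes) and 1 lower (28.0% of all genes) in B16F0 than in Melan-A, and 6 higher (18.2% of all genes) and 0 lower (28.4% of all genes) in B16F10 than in Melan-A. Between the B16 lines 3 were higher (13.1% of all genes) and 3 lower (17.0% of all genes) in B16F10 past that fold. Of the 34 calls between B16F0 and Melan-A 28 held under every one of 20 other settings, as did 23 of 33 between B16F10 and Melan-A and 20 of 27 between the B16 lines. Under at least 1 setting the sign turned for Rrp12 and Mybbp1a in the first comparison, for Polr1a, Nop14, Bms1, Wdr12, Nifk and Npm1 in the second, and for Ubtf and Nop58 in the third.

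The largest untreated differences from Melan-A were those of Dkc1 and Nop10 of the H/ACA group. In the same group Nhp2 was also higher in B16F0 and B16F10 (0.72 and 0.60, log2), and Gar1 was lower (-0.19 and -0.16). Dkc1, the pseudouridine synthase of the H/ACA snoRNP and a partner of telomerase RNA, was 1.42 ± 0.039 (adjusted p = 8.74e-24) higher in B16F0 than in Melan-A and 1.39 ± 0.039 higher in B16F10 (log2 differences, ± SE of the edgeR fit). Nop10, the smallest H/ACA core protein, had control levels of 34.6 and 32.4 CPM in Melan-A, 83.9 and 80.9 CPM in B16F0 and 62.7 and 58.1 CPM in B16F10, with no overlap between lines. Its differences from Melan-A were 1.30 ± 0.045 (adjusted p = 2.13e-21) in B16F0 and 0.85 ± 0.046 (adjusted p = 1.86e-16) in B16F10. Gnl3, the nucleolar GTPase nucleostemin, was 1.12 ± 0.038 (adjusted p = 1.81e-21) higher in B16F0 than in Melan-A and 0.53 ± 0.039 higher in B16F10. Among the Pol I genes Taf1d and Polr1c were higher in B16F0 than in the other lines: B16F10 lay -1.01 ± 0.056 (adjusted p = 9.03e-16) and -0.73 ± 0.042 (adjusted p = 2.19e-15) from B16F0, and 0.022 and -0.0046 from Melan-A, neither of which was called. Utp20, a large scaffold of the processome, went the other way, at -0.47 ± 0.038 (adjusted p = 1.65e-12) in B16F0 against Melan-A and 0.84 ± 0.038 (adjusted p = 4.94e-18) in B16F10 against B16F0. The Pol I activator Ubtf was lower in both B16 lines, with differences from Melan-A of -0.62 ± 0.031 for B16F0 (adjusted p = 3.15e-17) and -0.54 ± 0.031 for B16F10 (adjusted p = 1.07e-15). Tsr1 differed from Melan-A by -0.46 and -0.47 in the same lines, and it shares exons with another gene, as described with its SX-682 values.

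**Figure D2:**
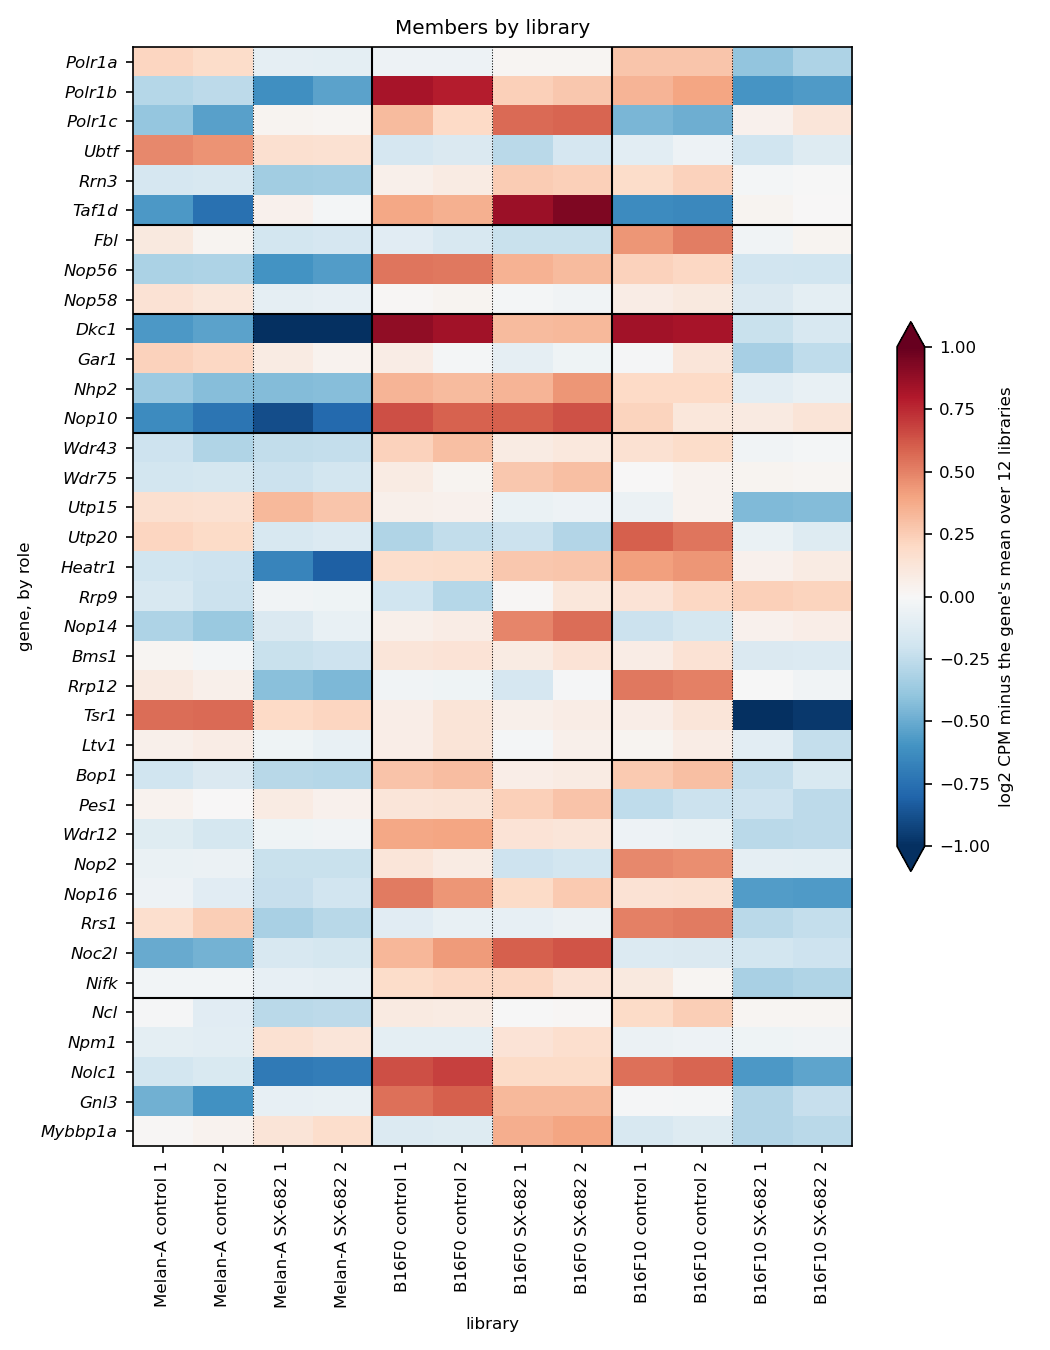
Each member (row, grouped by role) in each of the 12 libraries (column), as log2 CPM minus that gene's mean over the libraries; colours end at -1 and 1. Replicate columns look alike, Dkc1, Polr1b and Nolc1 are higher in the untreated B16 lines than in untreated Melan-A, and the B16F10 SX-682 columns are below their controls for 28 called members.

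With SX-682 most members fell in Melan-A and B16F10, and fewer did in B16F0. In Melan-A 10 members rose (23.4% of all genes tested rose) and 22 fell (24.7% of all genes). In B16F0 11 rose (25.1% of all genes) and 12 fell (25.0% of all genes). In B16F10 3 rose (25.5% of all genes) and 28 fell (25.3% of all genes). The median member change was -0.15 in Melan-A, -0.25 in B16F10 and -0.039 in B16F0, beside 0 over all genes in each line. In all 3 lines Polr1c, Taf1d and Nop14 rose, which is 3 of 37 members (11.3% of all genes rose in all 3), and Polr1b, Fbl, Nop56, Dkc1, Bop1, Nop2, Nop16, Ncl and Nolc1 fell, which is 9 of 37 (11.7% of all genes). The most frequent pattern, in 10 members, was a fall in Melan-A and B16F10 with no call in B16F0. The share of all genes with that pattern is not given here, so the count describes the members only. Most changes were small. With an absolute fold limit of 1.5, 1 member rose (6.65% of all genes rose past it) and 1 fell (6.48% of all genes) in Melan-A. None rose (8.63% of all genes) or fell (7.49% of all genes) in B16F0, and 1 rose (9.59% of all genes) and 8 fell (8.16% of all genes) in B16F10, and none rose (2.01% of all genes) or fell (1.34% of all genes) past it in all 3 lines. All p-values here are adjusted over the 18338 genes of edgeR's quasi-likelihood test, and an exact permutation test of 2 against 2 libraries could not give a p below 0.333.

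**Figure D3:**
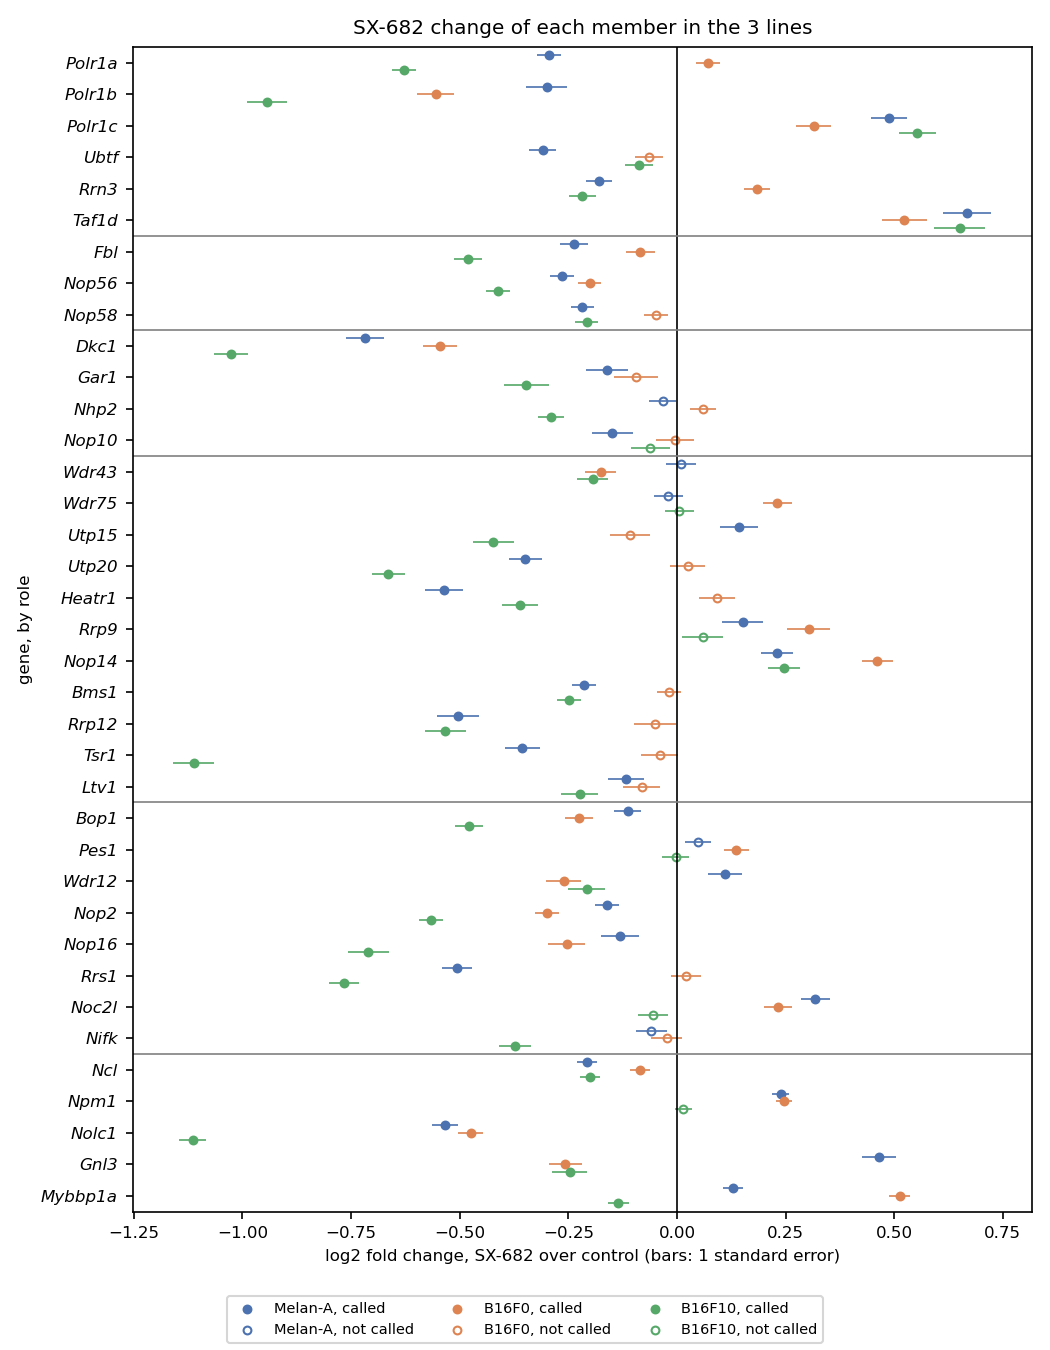
SX-682 change of each member, grouped by role, as the log2 fold change over the untreated control of the same line with bars of 1 SE; filled points passed the adjusted p of 0.05. B16F10 points lie furthest left for Tsr1, Nolc1, Dkc1 and Polr1b, and Taf1d, Polr1c and Nop14 lie right of 0 in all 3 lines.

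The Pol I genes moved in both directions within the same cells. Polr1a, the largest Pol I subunit, had control levels of 201 and 197 CPM in Melan-A, 167 and 167 CPM in B16F0 and 209.9 and 210.0 CPM in B16F10. With SX-682 its libraries read, in the same order of lines, 162 and 162, 176 and 176, and 132 and 139.7 CPM. Polr1a thus fell in Melan-A by 0.29 ± 0.027 (adjusted p = 1.91e-10) and in B16F10 by 0.63 ± 0.028 (adjusted p = 1.03e-17), with no overlap between groups. In B16F0 it rose by 0.072 ± 0.028 (adjusted p = 0.0321), a small change that was lost under several settings. Polr1b, which forms the catalytic centre with Polr1a, had control levels of 32.1 and 32.5 CPM in Melan-A, 69.2 and 67.04 CPM in B16F0 and 49.4 and 51.1 CPM in B16F10, and SX-682 levels of 25.4 and 26.95, 45.9 and 46.9, and 25.9 and 26.4 CPM. It fell in all 3 lines, by 0.30 ± 0.046, 0.56 ± 0.043 and 0.94 ± 0.047, so that treated B16F10 came down to the level of treated Melan-A from a higher control level. Rrn3, the factor that brings Pol I to the rRNA promoter, had control levels of 90.7 and 91.1 CPM in Melan-A, 106 and 108 CPM in B16F0 and 116 and 119 CPM in B16F10, and SX-682 levels of 80.1 and 80.3, 122 and 121, and 101 and 102 CPM. It fell in Melan-A by 0.18 ± 0.03 and in B16F10 by 0.22 ± 0.031, and rose in B16F0 by 0.18 ± 0.03 (adjusted p = 6.52e-06). Ubtf, which keeps rRNA genes open, fell by 0.31 ± 0.031 in Melan-A and changed by -0.065 in B16F0, which was not called, and -0.088 in B16F10.

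Taf1d and Polr1c rose in every line. Taf1d belongs to the TBP-containing selectivity factor at the rRNA promoter, and its control levels were 20.2 and 17.99 CPM in Melan-A, 39.3 and 38.6 CPM in B16F0 and 19.5 and 19.3 CPM in B16F10. With SX-682 it read 31.1 and 29.6, 54.6 and 57.5, and 30.7 and 30.2 CPM, above the controls of the same line in all 6 treated libraries, with changes of 0.67 ± 0.055 (adjusted p = 1.62e-11), 0.52 ± 0.051 (adjusted p = 6.07e-10) and 0.65 ± 0.058 (adjusted p = 6.85e-11). Taf1d has 8949 merged exonic bases and no principal transcript, and how much of its rise was messenger RNA was not tested. Polr1c is a subunit that Pol I shares with RNA polymerase III. Its control levels were 71.9 and 64.4 CPM in Melan-A, 117 and 108 CPM in B16F0 and 68.7 and 67.1 CPM in B16F10, and its SX-682 levels were 95.9 and 95.2, 139 and 141, and 97.1 and 102 CPM. The changes were 0.49 ± 0.042, 0.31 ± 0.041 and 0.55 ± 0.043, and the change of Polr1c in B16F10 was above that in B16F0 by 0.24 ± 0.059 (adjusted p = 0.00224), a difference in this direction that no other member passed. The 250 bases before the RefSeq start of both genes (GRCm38.p6, 5′ to 3′ on the strand of the gene) are shown because these genes rose in all 3 lines while Polr1b fell in all 3. Capitals mark any of 4 short motifs searched in either direction, which are CACGTG (the E-box), CCGGAA (the core of ETS sites), GGGCGG (the GC box) and TATAAA (the TATA box). Taf1d lies at chr9:15305964-15306213, plus strand, and Polr1c at chr17:46248046-46248295, minus strand.
Taf1d: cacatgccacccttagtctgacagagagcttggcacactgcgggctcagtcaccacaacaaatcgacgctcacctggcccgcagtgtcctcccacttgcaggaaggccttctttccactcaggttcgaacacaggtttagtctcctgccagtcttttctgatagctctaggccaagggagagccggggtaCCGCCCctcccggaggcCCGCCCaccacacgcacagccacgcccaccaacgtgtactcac
Polr1c: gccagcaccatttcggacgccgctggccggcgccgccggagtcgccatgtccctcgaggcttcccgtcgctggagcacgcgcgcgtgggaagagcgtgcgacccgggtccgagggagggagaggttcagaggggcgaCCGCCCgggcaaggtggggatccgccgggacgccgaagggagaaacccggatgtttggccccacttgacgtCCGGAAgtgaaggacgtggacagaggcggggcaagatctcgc
Taf1d holds 2 GC boxes, and Polr1c holds 1 GC box and 1 CCGGAA.

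**Figure D4:**
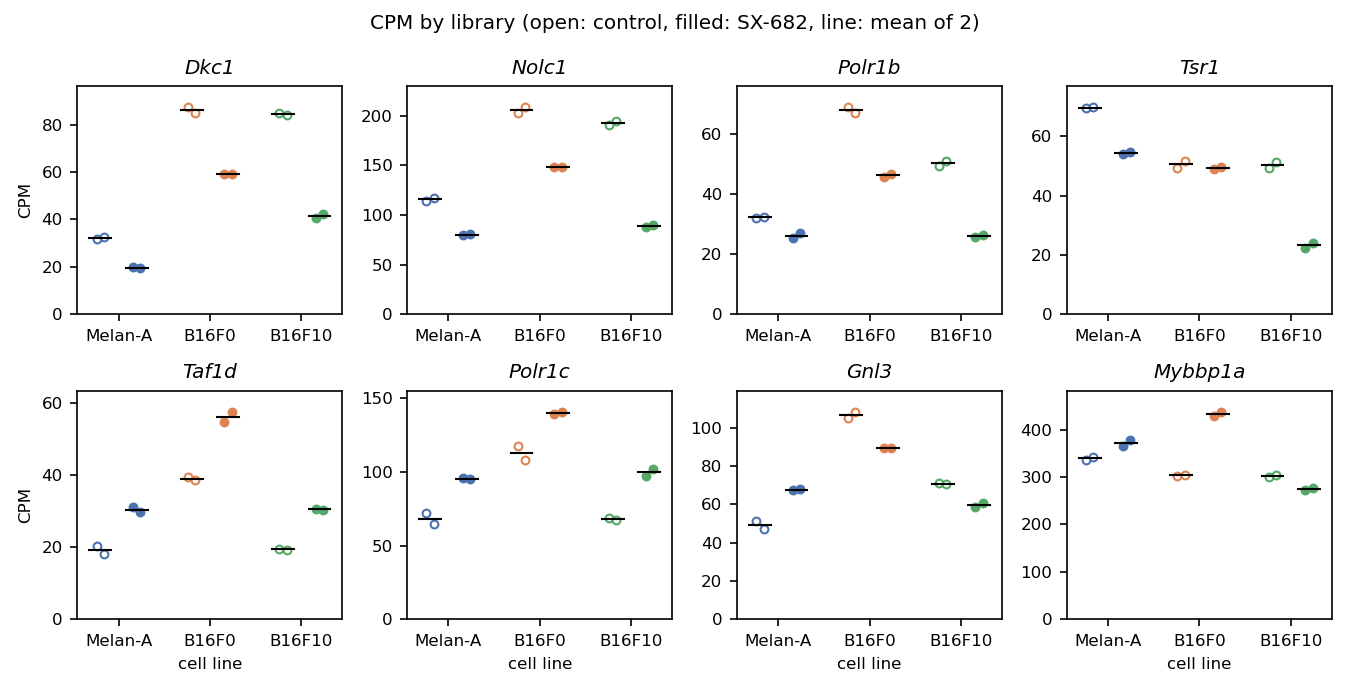
CPM of 8 members in each library, by line, with open points for the 2 controls, filled points for the 2 SX-682 libraries and a line at their mean; every axis starts at 0. Dkc1, Nolc1 and Polr1b fell in all 3 lines, Tsr1 fell in Melan-A and B16F10, Taf1d and Polr1c rose in each line, and Gnl3 and Mybbp1a moved in opposite directions in different lines.

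The 3 core proteins of the box C/D snoRNP fell together in Melan-A and B16F10. Nop58, a scaffold protein of this particle and its highest member in the mean CPM of all 12 libraries, had control levels of 203 and 198 CPM in Melan-A, 185 and 187 CPM in B16F0 and 194 and 196 CPM in B16F10, and SX-682 levels of 172 and 173, 181 and 179, and 166 and 172 CPM. It fell by 0.22 ± 0.026 (adjusted p = 3.83e-08) in Melan-A and by 0.21 ± 0.027 (adjusted p = 1.09e-07) in B16F10, and its change in B16F0 was -0.048 ± 0.027, which was not called. The partner scaffold Nop56 fell by 0.26 ± 0.028, 0.20 ± 0.027 and 0.41 ± 0.028 in Melan-A, B16F0 and B16F10. Fbl, fibrillarin, the methyltransferase that the particle carries, fell by 0.24 ± 0.032 in Melan-A and 0.48 ± 0.032 in B16F10, and by 0.084 ± 0.033 in B16F0. In untreated cells Fbl was 0.61 ± 0.032 higher in B16F10 than in B16F0, and its treated B16F10 libraries (126 and 131 CPM) still lay above its treated Melan-A and B16F0 libraries, which read 110.5 to 115 CPM.

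In the H/ACA group the enzyme Dkc1 fell in every line, while each of its 3 partners was called in fewer. Dkc1 had control levels of 31.9 and 32.8 CPM in Melan-A, 87.5 and 84.99 CPM in B16F0 and 84.8 and 84.1 CPM in B16F10, and SX-682 levels of 19.96 and 19.3, 59.01 and 59.3, and 40.6 and 42.4 CPM. The changes of -1.03 ± 0.04 (adjusted p = 3.58e-19) in B16F10, -0.72 ± 0.044 (adjusted p = 2.95e-14) in Melan-A and -0.54 ± 0.038 (adjusted p = 5.34e-13) in B16F0 left no overlap between treated and control libraries, and treated B16F10 still read higher than untreated Melan-A. Nhp2 had control levels of 128 and 123 CPM in Melan-A, 209 and 205 CPM in B16F0 and 189.5 and 190.1 CPM in B16F10, and SX-682 levels of 123 and 123, 209 and 224, and 154 and 157 CPM. It fell in B16F10 by 0.29 ± 0.031 (adjusted p = 2.61e-09), and its changes of -0.032 ± 0.031 in Melan-A and 0.06 ± 0.03 in B16F0 were not called. Gar1, which helps release the modified rRNA, fell by 0.35 ± 0.052 in B16F10 and 0.16 ± 0.048 in Melan-A, and Nop10 fell by 0.15 ± 0.048 in Melan-A and was not called in the B16 lines, with SX-682 levels of 29.04 and 31.3, 81.1 and 83.4, and 57.1 and 58.6 CPM. The Nop10 changes did not pass the test of a difference among lines (adjusted p = 0.171). Dkc1 spans chrX:75095854-75109777 on the plus strand, and the 250 bases before its RefSeq start (chrX:75095604-75095853, plus strand, GRCm38.p6) are shown because no other member fell as far in the mean of the 3 lines.
Dkc1: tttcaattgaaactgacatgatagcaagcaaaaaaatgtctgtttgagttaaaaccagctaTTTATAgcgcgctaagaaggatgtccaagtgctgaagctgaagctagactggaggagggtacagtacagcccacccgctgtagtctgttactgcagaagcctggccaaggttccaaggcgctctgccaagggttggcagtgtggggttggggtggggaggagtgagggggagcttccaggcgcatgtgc
Of the 4 motifs this window holds 1 TATAAA, on the opposite strand and 189 bases before the start.

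Of the 11 small subunit factors 3 rose and 6 fell in Melan-A, beside 23.4% and 24.7% of all genes. In B16F0 3 rose and 1 fell (25.1% and 25.0% of all genes), and in B16F10 1 rose and 8 fell (25.5% and 25.3% of all genes). Tsr1, a late pre-40S factor that blocks early binding of the initiation machinery, had control levels of 69.4 and 69.9 CPM in Melan-A, 49.4 and 51.7 CPM in B16F0 and 49.4 and 51.4 CPM in B16F10, and SX-682 levels of 54.1 and 54.8, 48.8 and 49.6, and 22.5 and 24.2 CPM. It fell by 1.11 ± 0.047 (adjusted p = 2e-18) in B16F10 and by 0.36 ± 0.04 (adjusted p = 9.11e-09) in Melan-A, and its change in B16F0 was -0.039 ± 0.043, with overlapping libraries. Tsr1 shares 32.3% of its exonic bases with Srr (serine racemase) on the opposite strand, and how the counting treated strand is not stated. Srr, at 11.7 to 23.8 CPM, gave 0.99 ± 0.073 in B16F10, 0.38 ± 0.068 in Melan-A and 0.10 ± 0.075 in B16F0, with the sign opposite to that of Tsr1, and its part in the Tsr1 values was not tested.

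Heatr1, a scaffold that couples Pol I transcription to processing, had control levels of 50.1 and 49.7 CPM in Melan-A, 64.8 and 65.2 CPM in B16F0 and 76.1 and 77.9 CPM in B16F10, and SX-682 levels of 36.3 and 32.5, 69.2 and 69.5, and 59.1 and 60.9 CPM. It fell by 0.54 ± 0.043 (adjusted p = 9.62e-12) in Melan-A and by 0.36 ± 0.042 (adjusted p = 1.18e-08) in B16F10, and B16F0 gave 0.092 ± 0.041, which was not called. Utp20 had control levels of 80.6 and 79.1 CPM in Melan-A, 56.3 and 58.7 CPM in B16F0 and 105 and 100.5 CPM in B16F10, and SX-682 levels of 62.3 and 63.2, 59.98 and 56.8, and 66.2 and 63.5 CPM. Its falls were 0.35 ± 0.037 in Melan-A and 0.66 ± 0.038 in B16F10, and the treated libraries of all 3 lines lay between 56.8 and 66.2 CPM. Bms1, the GTPase of the processome and its highest member in the mean CPM of all 12 libraries, had control levels of 214 and 208 CPM in Melan-A, 229 and 232 CPM in B16F0 and 222 and 233 CPM in B16F10, and SX-682 levels of 181 and 183, 223 and 232, and 191 and 192 CPM. It fell by 0.21 ± 0.028 and 0.25 ± 0.028 in Melan-A and B16F10, with overlapping libraries in B16F0. Utp15, like Heatr1 part of the subcomplex that meets the nascent transcript first, had control levels of 42.2 and 42.1 CPM in Melan-A, 39.1 and 38.99 CPM in B16F0 and 36.3 and 38.6 CPM in B16F10, and SX-682 levels of 47.2 and 45.8, 36.1 and 36.4, and 27.9 and 28.02 CPM. It rose by 0.14 ± 0.043 in Melan-A and fell by 0.42 ± 0.048 in B16F10.

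The remaining small subunit factors ranged as widely. Nop14 rose by 0.23 ± 0.036, 0.46 ± 0.035 and 0.25 ± 0.037 in Melan-A, B16F0 and B16F10, and Rrp9, the protein that marks the U3 snoRNP, rose by 0.15 ± 0.047 in Melan-A and 0.30 ± 0.049 in B16F0. Rrp12, an export factor, fell by 0.50 ± 0.048 in Melan-A and 0.53 ± 0.048 in B16F10. Ltv1, which is released as the pre-40S particle matures, fell by 0.12 ± 0.041 and 0.22 ± 0.043 in the same lines. Of the WD-repeat proteins of the processome, Wdr43 fell by 0.18 ± 0.035 in B16F0 and 0.19 ± 0.036 in B16F10, and Wdr75 rose by 0.23 ± 0.033 in B16F0.

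Of the 8 pre-60S factors 6 fell (25.3% of all genes) and none rose (25.5% of all genes) in B16F10. Bop1, Pes1 and Wdr12 form a stable trimer that is needed for the large subunit rRNA, and their mRNAs did not move together. Pes1 had control levels of 161 and 158 CPM in Melan-A, 171 and 173 CPM in B16F0 and 132 and 136 CPM in B16F10, and SX-682 levels of 167 and 163, 185 and 192, and 137 and 131 CPM, and rose in B16F0, by 0.14 ± 0.029 (adjusted p = 0.000238). Bop1 fell in each line, by 0.11 ± 0.032, 0.23 ± 0.032 and 0.48 ± 0.032. Wdr12 had control levels of 42.4 and 40.7 CPM in Melan-A, 60.2 and 60.5 CPM in B16F0 and 44.6 and 44.04 CPM in B16F10, and SX-682 levels of 44.7 and 44.97, 50.6 and 50.2, and 38.2 and 38.5 CPM. It rose by 0.11 ± 0.04 in Melan-A and fell by 0.26 ± 0.04 in B16F0 and 0.21 ± 0.042 in B16F10. The changes of Bop1 and Wdr12 were lower in the mean of the B16 lines than in Melan-A, by 0.24 ± 0.039 (adjusted p = 1.05e-05) and 0.34 ± 0.05 (adjusted p = 1.54e-06).

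Among the other pre-60S factors, Rrs1, which helps to load the small ribosomal RNA of the large subunit, fell by 0.51 ± 0.033 in Melan-A and 0.77 ± 0.034 in B16F10 and gave 0.021 ± 0.034 in B16F0. Nop16 fell by 0.13 ± 0.044, 0.25 ± 0.043 and 0.71 ± 0.046, and Nop2, an rRNA cytosine methyltransferase, by 0.16 ± 0.028, 0.30 ± 0.028 and 0.57 ± 0.028, in Melan-A, B16F0 and B16F10. Nifk fell in B16F10 by 0.37 ± 0.037, and its change there minus that in B16F0 was -0.35 ± 0.051 (adjusted p = 3.35e-06). Noc2l rose by 0.32 ± 0.034 in Melan-A and 0.23 ± 0.033 in B16F0. It shares 20.9% of its exonic bases with Samd11 on the opposite strand, which was at most 0.081 CPM in any library.

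The 5 multifunctional nucleolar proteins moved in different directions. Nolc1, a chaperone that carries snoRNPs to the nucleolus and contacts Pol I, had control levels of 114 and 117 CPM in Melan-A, 203 and 209 CPM in B16F0 and 190.4 and 195 CPM in B16F10, and SX-682 levels of 79.6 and 80.4, 148 and 148, and 87.5 and 90.5 CPM. It fell in Melan-A by 0.53 ± 0.03 (adjusted p = 3.43e-15), in B16F0 by 0.47 ± 0.029 (adjusted p = 1.85e-14) and in B16F10 by 1.11 ± 0.03 (adjusted p = 5.34e-23), and treated B16F10 ended a little above treated Melan-A. Nolc1 spans chr19:46075863-46085530 on the plus strand, and the 250 bases before its RefSeq start (chr19:46075597-46075846, plus strand, GRCm38.p6) are given as the counterpart to Dkc1.
Nolc1: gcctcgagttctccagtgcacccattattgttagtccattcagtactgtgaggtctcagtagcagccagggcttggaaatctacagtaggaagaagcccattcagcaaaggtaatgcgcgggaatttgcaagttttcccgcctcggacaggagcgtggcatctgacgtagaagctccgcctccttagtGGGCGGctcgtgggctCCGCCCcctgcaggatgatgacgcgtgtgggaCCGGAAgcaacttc
It holds 2 GC boxes and, 14 bases before the start, a CCGGAA, and no TATAAA.

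Ncl, the member with the highest mean CPM over the 12 libraries, had control levels of 1437 and 1339 CPM in Melan-A, 1535 and 1533 CPM in B16F0 and 1654 and 1711 CPM in B16F10, and SX-682 levels of 1201 and 1206, 1439 and 1455, and 1467 and 1463 CPM. It fell in all 3 lines by 0.21 ± 0.023, 0.085 ± 0.023 and 0.20 ± 0.023. Npm1 rose by 0.24 ± 0.019 in Melan-A and 0.25 ± 0.019 in B16F0 and gave 0.015 ± 0.019 in B16F10. Nucleolin and nucleophosmin mRNAs thus moved in opposite directions in Melan-A and B16F0. Gnl3 had control levels of 51.4 and 46.95 CPM in Melan-A, 105 and 109 CPM in B16F0 and 71.2 and 70.5 CPM in B16F10, and SX-682 levels of 67.5 and 68.2, 89.4 and 89.4, and 58.5 and 60.9 CPM. It rose by 0.46 ± 0.039 (adjusted p = 2.45e-11) in Melan-A and fell by 0.26 ± 0.038 (adjusted p = 1.02e-06) in B16F0 and 0.25 ± 0.04 (adjusted p = 4.53e-06) in B16F10, and the change in the mean of the B16 lines was 0.72 ± 0.048 (adjusted p = 3.91e-13) lower than in Melan-A. Mybbp1a, a nucleolar repressor of transcription that is released when ribosome synthesis is disturbed, had control levels of 337 and 343 CPM in Melan-A, 303 and 305 CPM in B16F0 and 299 and 306 CPM in B16F10, and SX-682 levels of 366 and 378, 430.2 and 439, and 273 and 278 CPM. It rose by 0.51 ± 0.024 (adjusted p = 4.03e-17) in B16F0 and by 0.13 ± 0.024 in Melan-A and fell by 0.13 ± 0.024 in B16F10.

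The lines were compared directly. The SX-682 change differed among the 3 lines for 34 of 37 members (47.4% of all genes tested), the exceptions being Taf1d, Nop10 and Ltv1. That share of all genes was not matched to the members for counts. The same test left uncalled 36 of 118 other pathway genes and 12 of 79 cytosolic ribosomal protein genes, both described below. The change in B16F10 was lower than that in B16F0 for 29 members (14.9% of all genes) and higher for 1, Polr1c (15.3% of all genes), with a median difference of -0.25 beside 0.0084 over all genes. The largest were those of Tsr1, -1.07 ± 0.063 (adjusted p = 8.51e-14), Rrs1, -0.79 ± 0.049 (adjusted p = 1.97e-13), Polr1a, -0.70 ± 0.04 (adjusted p = 3.43e-14), and Utp20, -0.69 ± 0.055 (adjusted p = 4.43e-11). For the same difference between B16F10 and B16F0, 38 of the 118 other pathway genes were lower and 10 higher, with a median of -0.046. By list, 0 of 15 other Pol I genes, 2 of 12 snoRNP assembly factors and 2 of 13 exosome genes were lower. Among the other small subunit factors 17 of 38 were lower, and among the other pre-60S factors 17 of 40. Between the mean of the B16 lines and Melan-A the members divided, with 8 higher (18.7% of all genes) and 13 lower (17.1% of all genes). Past an absolute fold of 1.5, the change in B16F10 was lower than in B16F0 for 6 members (2.91% of all genes) and higher for 0 (3.65% of all genes), and the change in the B16 mean was lower than in Melan-A for 1 (4.12% of all genes) and higher for 0 (4.51% of all genes). The count of 8 at any fold was 4 without the first SX-682 library of Melan-A and 5 without the first B16F0 control. Heatr1 was the most shifted upwards, by 0.40 ± 0.052 (adjusted p = 2.68e-07), and Gnl3 the most shifted downwards. The 6 members called in opposite directions in a pair of lines were Polr1a, Rrn3, Utp15, Wdr12, Gnl3 and Mybbp1a. The share of all genes called in this way is not given here. The largest F values for a difference among lines were those of Mybbp1a, Polr1a and Tsr1 (181, 156 and 150).

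Some of the smaller calls were lost when 1 library was left out. That also weakens the test, so a lost call alone does not show that the change came from that library. Of the 32 calls in Melan-A 24 held under every one of 20 other settings, as did 21 of 23 in B16F0 and 30 of 31 in B16F10. The values of the calls that a single left-out library undid (edgeR) are as follows. For Gar1 in Melan-A the change was -0.13 (adjusted p = 0.0865) without Melan-A SX-682 library 2. For Nop10 in Melan-A the change was -0.092 (adjusted p = 0.203) without Melan-A control library 1 and -0.083 (adjusted p = 0.281) without Melan-A SX-682 library 1. For Utp15 in Melan-A the change was 0.13 (adjusted p = 0.0589) without Melan-A SX-682 library 1. For Rrp9 in Melan-A the change was 0.13 (adjusted p = 0.0709) without Melan-A control library 2. For Ltv1 in Melan-A the change was -0.10 (adjusted p = 0.102) without Melan-A control library 2, -0.12 (adjusted p = 0.0683) without Melan-A SX-682 library 1 and -0.10 (adjusted p = 0.169) without Melan-A SX-682 library 2. For Bop1 in Melan-A the change was -0.079 (adjusted p = 0.0857) without Melan-A control library 2. For Wdr12 in Melan-A the change was 0.086 (adjusted p = 0.177) without Melan-A control library 2, 0.13 (adjusted p = 0.0565) without Melan-A SX-682 library 1 and 0.11 (adjusted p = 0.088) without Melan-A SX-682 library 2. For Nop16 in Melan-A the change was -0.092 (adjusted p = 0.178) without Melan-A control library 1 and -0.10 (adjusted p = 0.183) without Melan-A SX-682 library 1. For Polr1a in B16F0 the change was 0.071 (adjusted p = 0.103) without B16F0 control library 1, 0.07 (adjusted p = 0.115) without B16F0 control library 2, 0.072 (adjusted p = 0.0781) without B16F0 SX-682 library 1 and 0.074 (adjusted p = 0.059) without B16F0 SX-682 library 2. For Fbl in B16F0 the change was -0.06 (adjusted p = 0.254) without B16F0 control library 1, -0.083 (adjusted p = 0.0903) without B16F0 SX-682 library 1 and -0.084 (adjusted p = 0.0725) without B16F0 SX-682 library 2. For Ubtf in B16F10 the change was -0.071 (adjusted p = 0.164) without B16F10 control library 2 and -0.061 (adjusted p = 0.222) without B16F10 SX-682 library 1. The rise of Polr1a in B16F0 was also lost with offsets for GC content and length, where it was -0.00048. The fall of Fbl in B16F0 was lost under DESeq2 as well (-0.069, adjusted p = 0.118).

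Some members hold snoRNA genes, a feature the choice by symbol did not use. The annotation (GENCODE M21, GRCm38) places 29 snoRNA genes inside 8 of the 37 members on the same strand, or 21.6% of members, against 259 of 19024 protein-coding genes in the table (1.36%). Those coding genes were not matched to the members for expression level. The hosts are Taf1d with 8 snoRNA genes, Nop56 with 5, Nop58 with 4, Wdr43, Ncl and Gnl3 with 3 each, Tsr1 with 2 and Dkc1 with 1. SnoRNAs of this kind are cut from introns and, as background, guide the particles that Nop56, Nop58 and Dkc1 build. With SX-682, 2 of the 8 hosts rose and 5 fell in Melan-A (23.4% and 24.7% of all genes), 1 rose and 5 fell in B16F0 (25.1% and 25.0%), and 1 rose and 7 fell in B16F10 (25.5% and 25.3%). Among the other 29 members 8 rose and 17 fell, 10 rose and 7 fell, and 2 rose and 21 fell in the same lines. The snoRNAs themselves were hardly captured: 11 of these snoRNA genes are in the table, and the highest, Snord91a in Tsr1, had at most 34 counts in a library.

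Promoter windows of 300 bases (RefSeq, GRCm38.p6, from 250 bases before the start) were at hand for 32 of the 37 members and for 14712 protein-coding genes. CACGTG was present in 8 members (25.0%) and 9.98% of the coding genes, and in 7.15% of all 32851 windows. The 8 were Ltv1, Mybbp1a, Nop2, Pes1, Rrn3, Tsr1, Utp20 and Wdr43, which include members that rose, fell and differed between lines, and none of the 4 genes printed above. CCGGAA was present in 14 members (43.8%, against 23.8% of coding genes and 14.9% of windows), and GGGCGG in 23 members (71.9%, against 56.7% and 35.7%). TATAAA was present in 2 members (6.25%, against 11.9% and 13.6%). Matches overlapped in 5 of the 32 members, with different motifs in Rrn3 and Tsr1 and the same motif in Gar1, Gnl3 and Ubtf, and in none of the windows printed above. These are letter matches in a window and were not tested as binding sites.

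Other genes of the pathway were listed from known function, with earlier results of these data known, and counted in the same way. Of 118 of them, 29 fell and 12 rose in all 3 lines, shares of 24.6% and 10.2% beside 24.3% and 8.11% of the members and 11.7% and 11.3% of all genes. In Melan-A 31 of the 118 rose and 40 fell (23.4% and 24.7% of all genes), in B16F0 30 rose and 56 fell (25.1% and 25.0%), and in B16F10 20 rose and 71 fell (25.5% and 25.3%), with medians of -0.0095, -0.071 and -0.17. By list, 3 of 15 other Pol I genes, 8 of 38 other small subunit factors, 10 of 40 other pre-60S factors, 3 of 12 snoRNP assembly factors and 5 of 13 genes of the RNA exosome, which trims the precursor, fell in all 3 lines, and 2, 5, 3, 1 and 1 rose. The gene with the largest mean change of each list was Cd3eap, a Pol I subunit, which changed by 0.088 ± 0.062 in Melan-A (not called), -1.16 ± 0.091 in B16F0 and -0.96 ± 0.075 in B16F10. Utp14b of the processome fell by 0.64 ± 0.058, 1.41 ± 0.072 and 1.36 ± 0.066 in the same order. Urb1, a pre-60S factor, fell by 0.39 ± 0.07, 0.58 ± 0.081 and 0.59 ± 0.072. Znhit3, which helps to assemble C/D snoRNPs, fell by 0.50 ± 0.074, 0.68 ± 0.077 and 0.99 ± 0.086, and shares 13.0% of its exonic bases with Myo19 on the opposite strand. Dis3, a nuclease of the exosome, fell by 0.39 ± 0.047, 0.55 ± 0.048 and 0.71 ± 0.049. Cd3eap, Utp14b and Dis3 share 4.25%, 3.18% and 4.19% of their exonic bases with Ercc1, Acsl3 and Pibf1. Of these Acsl3 alone lies on the same strand.

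Most ribosomal protein mRNAs rose. Of 79 cytosolic ribosomal protein genes tested, 76 rose in each line (all genes: Melan-A 23.4%, B16F0 25.1%, B16F10 25.5%). Of the 79, 74 rose in all 3 lines (93.7%, beside 8.11% of the members and 11.3% of all genes). Their median changes were 0.28, 0.23 and 0.37, against -0.15, -0.039 and -0.25 for the members. Rps20, the one with the largest mean change, rose by 0.40 ± 0.037, 0.44 ± 0.037 and 0.51 ± 0.037 in Melan-A, B16F0 and B16F10. Rps27l, a paralogue of a small subunit protein that was named after its values were seen, fell by 0.11 in Melan-A and 0.22 in B16F10. Their share of all counts was 5.21% and 5.19% in the B16F10 controls and 6.74% and 6.80% in the B16F10 SX-682 libraries, the group in which the members' share was lowest.

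**Figure D5:**
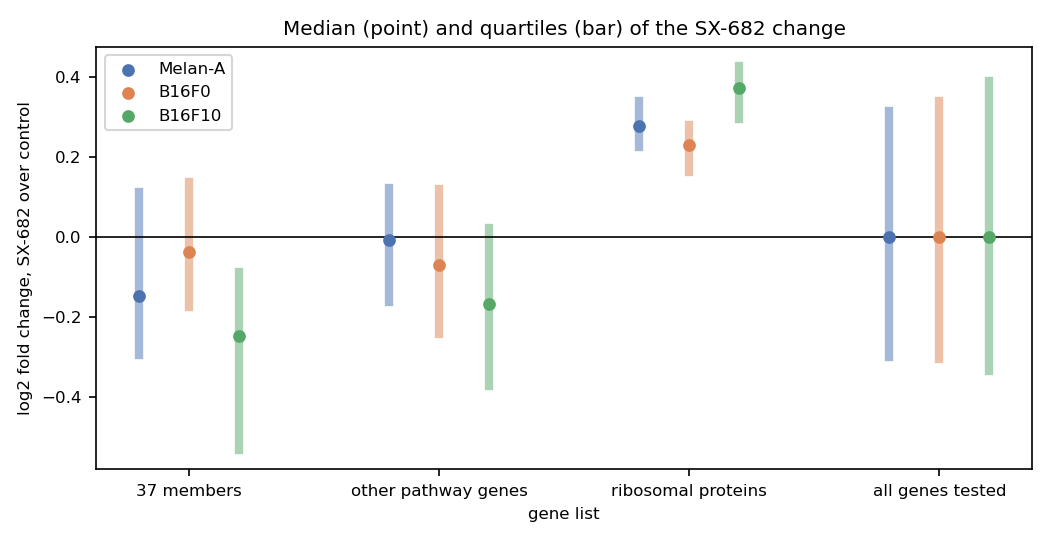
Median (point) and quartiles (bar) of the SX-682 log2 fold change over the genes of 4 lists in each line: the 37 members, 118 other pathway genes, 79 ribosomal protein genes and all 18338 genes tested. Members and other pathway genes lie lowest in B16F10, at -0.25 and -0.17, where the ribosomal proteins lie highest, at 0.37.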

How the data were processed

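RNA-seq libraries were made from cultured Melan-A, B16F0 and B16F10 cells, 2 per group in 6 groups. The authors deposited raw gene counts, 1 column per library, and their processing notes name cutadapt, STAR, DESeq2 and mm10 without roles or versions. The counting program and its use of strand are not given in the sources used here, and the counting shifts values where genes overlap. The deposited gene length was used for levels per kb.

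Of 34513 genes, 18338 passed filterByExpr and were fitted together in edgeR 4.0.16 (limma 3.58.1, R 4.3.3) with TMM scaling, 1 coefficient per group, quasi-likelihood F-tests and Benjamini-Hochberg adjustment over all genes at 0.05. Residual degrees of freedom were 6 and prior degrees of freedom 21.9, and the common biological coefficient of variation was 2.78%. Standard errors were derived from F. CPM used TMM-scaled library sizes. Library totals were 48876982 to 85322092 counts, and floors cover counting error only. All 12 libraries were closest to their own replicate, and replicates differed by more than sampling noise (mean chi-square per gene 2.86 to 5.29), so none was a repeated deposit. Groups came from the labels. The test was also run on simulated counts with known changes that were the same in all lines, and its outcome is not given here.

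The members and the gene lists were chosen with earlier results of these data known. Genes named with values are the member of highest mean CPM in each role, the 4 largest SX-682 changes per line, the 3 largest untreated differences per comparison, the 3 largest F values, members called in opposite directions, and the gene of largest mean change in each other list. Other members are given by their changes.

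Alternatives were RLE scaling, library sizes without the 50 highest genes, unfiltered genes, a minimum of 10 counts per gene and library, a replicate block within line, offsets for GC content and length, DESeq2 1.42.0, separate fits, each library left out, a fold limit of 1.5 and a prior count of 2. Replicate numbers were shared by control and SX-682 libraries, and the deviations of same-numbered libraries correlated at -0.028, -0.011 and -0.0089 in Melan-A, B16F0 and B16F10. With 2 libraries in a group this cannot show whether the samples are paired, and the main fit used no pairing. Annotation was GENCODE M21 (GRCm38), which matched 33821 genes by versioned identifier, and promoter sequences were RefSeq's of GRCm38.p6.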

Additional observations from a re-analysis of the deposited data

Results flagged for a closer look

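In 34 of the 37 members the SX-682 change differed among Melan-A, B16F0 and B16F10 in the test of the difference itself (edgeR quasi-likelihood F-test, 47.4% of all genes tested). That share was not matched to the members for counts. The range of the log2 fold change over the 3 lines, highest minus lowest, was widest in Tsr1 1.07, Rrs1 0.79, Gnl3 0.72, Polr1a 0.70, Utp20 0.69, Mybbp1a 0.65, Polr1b 0.64, Nolc1 0.64, Heatr1 0.63, Nop16 0.58 and Utp15 0.57. It was intermediate in Rrp12 0.48, Dkc1 0.48, Nop2 0.40, Rrn3 0.40, Fbl 0.40, Noc2l 0.37, Wdr12 0.37, Bop1 0.37, Nhp2 0.35 and Nifk 0.35. The narrowest of the 34 ranges were Gar1 0.25, Wdr75 0.25, Ubtf 0.24, Rrp9 0.24, Polr1c 0.24, Npm1 0.23, Nop14 0.23, Bms1 0.23, Nop56 0.21, Wdr43 0.20, Nop58 0.17, Pes1 0.14 and Ncl 0.12. With 2 libraries in a group no library could be tested as standing apart from its group.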

How the results depend on the processing

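Under all 20 alternatives 24 of 32 SX-682 calls held in Melan-A, 21 of 23 in B16F0 and 30 of 31 in B16F10, and of the untreated calls 28 of 34, 23 of 33 and 20 of 27 held for B16F0 against Melan-A, B16F10 against Melan-A and B16F10 against B16F0. For the difference of the SX-682 change, 16 of 21 calls between the B16 mean and Melan-A held under all 19 alternatives, and 27 of 30 between B16F10 and B16F0 under all 20. A fold limit of 1.5 left 1 member raised and 1 lowered by SX-682 in Melan-A, 0 and 0 in B16F0, 1 and 8 in B16F10, and 0 and 0 in all 3 lines (2.01% and 1.34% of all genes). The same limit left 10 higher and 1 lower in untreated B16F0 than in Melan-A (21.3% and 28.0% of all genes), 6 and 0 in B16F10 than in Melan-A (18.2% and 28.4%), and 3 and 3 in B16F10 than in B16F0 (13.1% and 17.0%). It also left 0 higher and 1 lower SX-682 changes in the B16 mean than in Melan-A (4.51% and 4.12% of all genes), and 0 and 6 in B16F10 than in B16F0 (3.65% and 2.91%), a limit that by construction asks for larger changes. Library sizes without the 50 highest genes gave 11 members lower in untreated B16F10 than in Melan-A, against 6, and 23 lower than in B16F0, against 15. That scaling also moved the median of all genes in B16F10, from -0.10 to -0.24 against Melan-A and from -0.0017 to -0.089 against B16F0. Leaving out 1 library at a time, the count of members with a higher SX-682 change in the B16 mean than in Melan-A ran from 4 to 9. Uncalled or fragile small values changed sign. With offsets for GC content and length the SX-682 change was -0.00048 for Polr1a, 0.020 for Tsr1 and 0.010 for Bms1 in B16F0, and 0.036 for Pes1 in B16F10. Without the 50 highest genes it was 0.019 for Pes1 in B16F10 and 0.0015 for Nhp2 in Melan-A. With a library left out, Nhp2 in Melan-A ran from -0.060 to 0.0067, Bms1 in B16F0 from -0.045 to 0.011 and Pes1 in B16F10 from -0.040 to 0.027. The cause was not tested. With a replicate block the counts raised and lowered were 10 and 22 in Melan-A, 11 and 12 in B16F0 and 3 and 28 in B16F10, and no count moved by more than 1.5 times. Every member had at least 1180 counts in each library, so counting depth limits none of these values much.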
